A study of Mus musculus with 4 samples.

Results

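The 40 genes described here encode enzymes and membrane proteins of the lysosome. They were chosen by gene symbol, with earlier results of these data known. They comprise proteases, glycosidases and sulfatases, lipid-handling enzymes, membrane proteins, the regulator gene Tfeb and 2 other lumen proteins. All 40 were found among the 21335 genes with a symbol on the array, each on 1 feature that carried no other symbol. The cells were MC3T3-E1, pre-osteoblasts derived from the calvaria of C57BL/6 mice, and their RNA was read on 4 Affymetrix arrays, 1 for each group. The groups were cells given citalopram for 3 days, untreated control cells at 3 days, cells given citalopram for 7 days, and untreated control cells at 7 days. Citalopram, which blocks the reuptake of serotonin, was given at 100 µM (0.0001 mol per litre). All groups were grown in serum-poor proliferation medium, and the model is this cell line alone, with no other cells of bone. The sources used here do not say whether the wells of a condition were pooled.

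Lysosomes are acidic compartments in which proteins, glycans, nucleic acids and lipids are broken down by hydrolases that work at low pH. Their limiting membrane carries heavily glycosylated proteins, channels and transporters. Many of these genes are under the control of TFEB and its relatives TFE3 and MITF, which bind E-box letters near transcription starts and respond to lysosomal stress and nutrient supply. Citalopram belongs to the cationic amphiphilic drugs, weak bases that collect in acidic lysosomes. In bone, osteoblasts use lysosomes for the turnover of matrix components and receptors, and osteoclasts secrete lysosomal enzymes onto the bone surface.

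Values are expression values as deposited, taken as log2 from their range. A difference is the citalopram array minus the control array, or day 7 minus day 3. A gene entered a comparison when the brighter of its 2 arrays reached a floor, set at the 40th percentile of all genes on the array (5.97 to 6.04). Of the 40 genes, 37 lay above the floor on all 4 arrays. Ctsf (5.81 to 5.85), Ctss (5.05 to 5.24) and Cln3 (5.42 to 5.47) lay below it on all 4. Ctsf and Ctss encode the cysteine proteases cathepsin F and cathepsin S, and Cln3 a lysosomal membrane protein whose loss causes a childhood neurodegenerative disease. No level of 1 gene is set against that of another, because each is read by its own probes. In RNA from a whole culture, fewer cells of a type and less RNA per cell cannot be told apart.

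Between arrays, Pearson's r was 0.986 to 0.995 over 35556 features, which are not independent, and the median over all genes was 6.92 to 6.94. The median over all features was less level. It was 6.5 on both day 3 arrays, and at day 7 it was 6.66 with citalopram and 6.6 in control. Of 12 pre-osteoblast markers, 9 were measured and 8 reached the floor on some array, among them Sparc (osteonectin, 13.84 to 14.07). Alpl (alkaline phosphatase, 5.93 to 6.09) reached it on the control arrays only and lay close to it on every array. Ibsp, a gene of later osteoblasts, did not reach it. The linear sum of the 9 was 37481 with citalopram and 34146 in control at day 3, and 40274 with citalopram and 39028 in control at day 7. Most of this sum comes from the matrix genes Sparc, Postn, Col1a1 and Col1a2 (11.90 to 14.07), so it says little about the other markers. No group had a replicate, so a difference at a single day has no replicate check, and 1 array on each side limits how precise it is.

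At day 3 with citalopram, most of the lysosomal genes were slightly higher than in control, and at day 7 most were slightly lower. The difference was above 0 for 30 of 37 genes at day 3 (81.1%), where 57.7% of all 12361 genes above the floor were above 0. The median of the 37 was 0.10, against 0.03 over all genes. At day 7 the difference was above 0 for 14 of 37 (37.8%), where 51.4% of all 12341 genes were. Ctsb and Cd63, at 0.00 to 2 decimals, are among the 14, and 12 of 37 were higher by 0.005 or more. The day 7 median was -0.06, against 0.01 over all genes. By sign, 13 of the 37 were higher at both days (Ctsb and Cd63 included), 6 were lower at both, 17 were above control at day 3 but below it at day 7, and Tfeb alone was below at day 3 and above at day 7. Among 12119 genes above the floor at both days these 4 patterns held 31.2%, 21.8%, 26.7% and 20.2%. The sizes were small. The members were chosen with earlier results of these data known, so shares beside all genes describe them and test nothing. At day 3, Gpnmb was at least 1.5-fold higher, 1 of 37 genes where 0.485% of all genes were, and Ctsw at least 1.5-fold lower, 1 of 37 where 0.243% were. At day 7, 0 of 37 were 1.5-fold higher, where 0.551% of all genes were, and 0 of 37 were 1.5-fold lower, where 0.916% were. Under cyclic loess or equal medians, Ctsw and Man2b1 passed 1.5-fold lower at day 7, and under quantile normalization Man2b1 alone did. The share of all genes past 1.5-fold under these scalings is not given, so these counts have no background beside them.

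**Figure D1:**
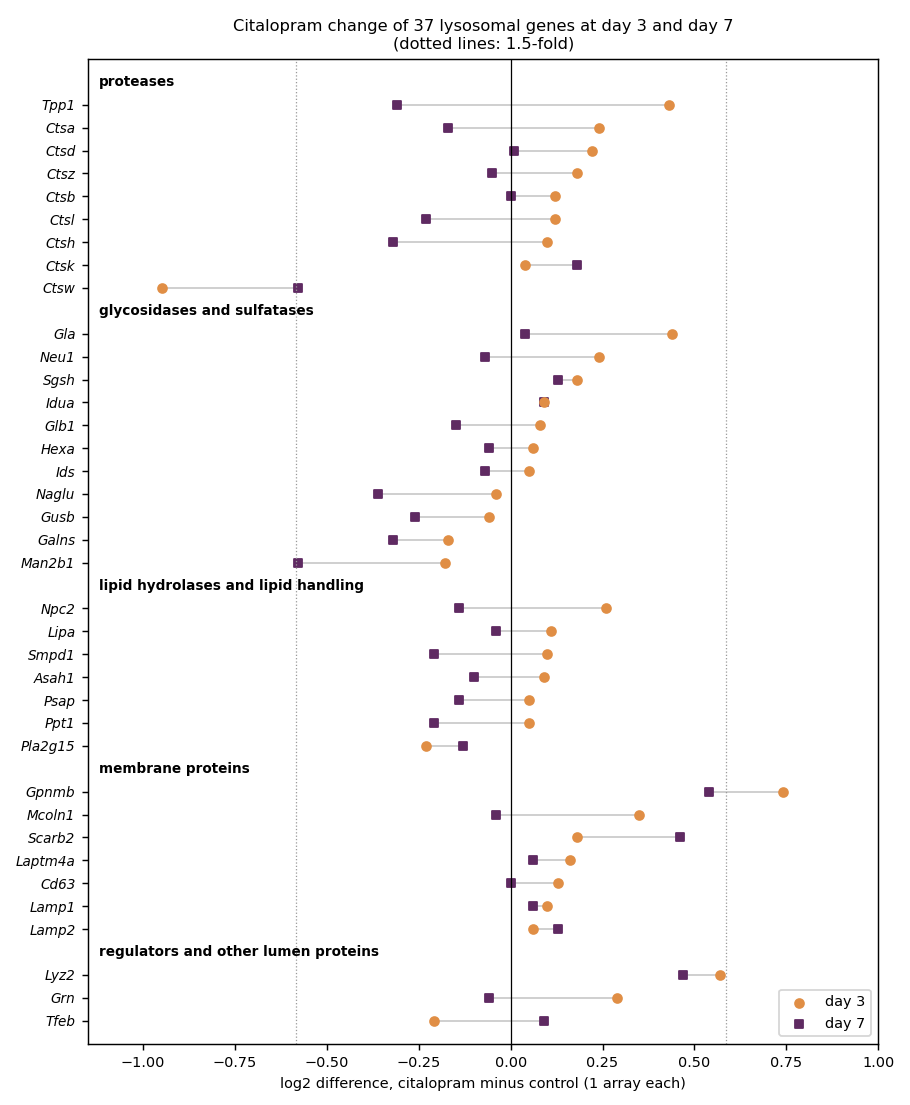
The log2 difference, citalopram minus control, is plotted for each of the 37 lysosomal genes above the floor at day 3 (orange circles) and day 7 (purple squares), grouped by role, with 1 array on each side of a difference and dotted lines at 1.5-fold. Gpnmb (0.74 and 0.54) and Lyz2 (0.57 and 0.47) lie to the right at both days and Ctsw (-0.95 and -0.58) to the left, while most enzymes sit right of 0 at day 3 and left of it at day 7.

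Over both days together, limma called 0 of the 37 genes for citalopram, and 0 of 12586 genes in all (0.0%). This fit had terms for treatment and day, so each gene's own spread comes from how far the citalopram effect differed between the days, with 1 residual degree of freedom. The test adds a spread shared across all genes worth 7.41 degrees of freedom, so its intervals and p-values rest mostly on other genes. At an unadjusted p under 0.05 it placed 3 of the 37 higher (Gpnmb, Lyz2 and Scarb2) and 3 lower (Ctsw, Man2b1 and Galns), where 9.05% of all genes had such a p. The calls depended on how the arrays were scaled. After quantile normalization limma called Gpnmb and Lyz2 higher and Ctsw lower, 3 of the 37, where it called 131 of 12584 genes in all. After cyclic loess, and after the medians of all genes were set equal, it called Gpnmb higher and Ctsw lower, 2 of the 37. The genes called in all were then 41 and 36 of 12586.

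The E-box letters CACGTG, the core of the site that TFEB and its relatives bind, were looked for in RefSeq promoter windows of build GRCm38.p6, which hold 250 bases before and 50 after each annotated start. CACGTG reads the same on both strands. Windows were at hand for 35 of the 40 genes (Asah1, Ctsb, Ctsh, Ctsw and Galns had none). Of the 35, 11 (31.4%) had CACGTG in at least 1 window, where 8.09% of 27025 genes with a window did. At least 2 copies in the same window were found for 6 of 35 (17.1%), namely Ctsa, Cln3, Ctsd, Mcoln1, Lamp1 and Gla, where 0.681% of all genes had as many. The 250 bases before the start are printed for 4 genes that carry several copies and for Gpnmb, the gene furthest above control, which has none. Each is given 5′ to 3′ on the strand of its gene, with CACGTG in capitals. They are Lamp1 (chr8:13158911-13159160, plus strand), Mcoln1 (chr8:3500269-3500518, plus strand), Gla (chrX:134601006-134601255, minus strand), Ctsd (chr7:142387828-142388077, minus strand) and Gpnmb (chr6:49036268-49036517, plus strand).
Lamp1: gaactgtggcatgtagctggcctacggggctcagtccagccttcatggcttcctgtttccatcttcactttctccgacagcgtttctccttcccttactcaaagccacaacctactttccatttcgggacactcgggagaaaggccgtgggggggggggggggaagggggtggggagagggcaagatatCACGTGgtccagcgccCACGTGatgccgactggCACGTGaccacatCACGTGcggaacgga
Mcoln1: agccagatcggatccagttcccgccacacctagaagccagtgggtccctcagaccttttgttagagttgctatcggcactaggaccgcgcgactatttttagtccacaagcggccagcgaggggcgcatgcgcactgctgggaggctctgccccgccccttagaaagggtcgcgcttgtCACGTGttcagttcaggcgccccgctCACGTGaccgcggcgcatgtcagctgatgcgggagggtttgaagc
Gla: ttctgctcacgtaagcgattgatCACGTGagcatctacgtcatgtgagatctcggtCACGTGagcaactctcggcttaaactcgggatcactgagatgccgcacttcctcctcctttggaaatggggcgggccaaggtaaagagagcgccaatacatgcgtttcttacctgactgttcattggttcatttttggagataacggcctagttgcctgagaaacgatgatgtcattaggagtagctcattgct
Ctsd: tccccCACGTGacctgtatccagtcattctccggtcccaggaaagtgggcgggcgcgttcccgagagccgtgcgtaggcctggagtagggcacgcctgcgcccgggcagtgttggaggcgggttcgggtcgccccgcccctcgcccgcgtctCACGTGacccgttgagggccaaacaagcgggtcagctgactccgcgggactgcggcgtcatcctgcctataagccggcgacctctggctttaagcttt
Gpnmb: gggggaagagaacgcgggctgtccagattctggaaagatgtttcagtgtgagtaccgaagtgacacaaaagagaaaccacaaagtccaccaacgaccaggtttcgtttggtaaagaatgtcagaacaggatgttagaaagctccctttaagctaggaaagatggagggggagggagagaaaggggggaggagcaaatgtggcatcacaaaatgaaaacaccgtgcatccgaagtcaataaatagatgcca

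Counted from the annotated start, Lamp1 carried 4 copies that begin at bases -61, -45, -28 and -15. Mcoln1 carried 2 copies (-71 and -45), Gla 2 (-227 and -194) and Ctsd 2 (-245 and -98). Of the 11 genes with CACGTG, 9 lay above the floor, and 8 of these were above control at day 3 (median 0.18) and 4 at day 7 (median -0.04). Of the genes with a window and no CACGTG, 23 lay above the floor, and 19 of these were above control at day 3 (median 0.10) and 9 at day 7 (median -0.06). Lamp1, with 4 copies, differed by 0.10 and 0.06, and Gpnmb, with none in its window, by 0.74 and 0.54. A match gives letters and not binding, and its absence concerns this window only.

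Among the membrane proteins, Gpnmb had the largest positive difference of all 37 genes at both days. Gpnmb encodes a transmembrane glycoprotein of lysosomes and melanosomes that is also made by osteoblasts, where it is known as osteoactivin. Its value was 11.58 with citalopram and 10.84 in control at day 3, and 11.17 with citalopram and 10.63 in control at day 7. Both citalopram arrays lay above both control arrays. Gpnmb was thus 1.68-fold higher at day 3 (log2 difference 0.74) and 1.45-fold higher at day 7 (0.54). Over both days the estimate was 0.64 with a standard error of 0.11 and a 95% interval of 0.39 to 0.89, with a limma adjusted p of 0.299 on the deposited values. Across the scalings, floors and fits tried, that adjusted p ran from 0.00743 to 1.0, and it was 1.0 in the fit with no term for day.

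The other membrane proteins differed less. Scarb2 encodes LIMP-2, which carries glucocerebrosidase to the lysosome. It was at 9.96 with citalopram and 9.78 in control at day 3, and at 10.49 with citalopram and 10.03 in control at day 7, so the citalopram array was the higher at each day while the treatments overlapped across days. The differences were 0.18 and 0.46, and limma's estimate over both days was 0.32 (standard error 0.11, adjusted p 0.447). Mcoln1 encodes TRPML1, a calcium-permeable channel of the lysosomal membrane. It was at 11.15 with citalopram and 10.80 in control at day 3, and at 10.94 with citalopram and 10.98 in control at day 7. The day 3 citalopram array was the highest of the 4, with a difference of 0.35 at day 3 and -0.04 at day 7.

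Lamp1 and Lamp2 encode abundant glycoproteins that line the inner face of the membrane. Lamp1 was at 13.26 with citalopram and 13.16 in control at day 3, and at 13.23 with citalopram and 13.16 in control at day 7. Lamp2 was at 12.90 with citalopram and 12.84 in control at day 3, and at 12.98 with citalopram and 12.85 in control at day 7. For both genes the 2 citalopram arrays lay above the 2 control arrays, by 0.13 or less within a day. Laptm4a, a small transmembrane protein gene, was at 12.99 with citalopram and 12.83 in control at day 3, and at 13.09 with citalopram and 13.03 in control at day 7. Cd63, a tetraspanin gene, differed by 0.13 and 0.00. All 7 membrane protein genes above the floor were above 0 at day 3 (median 0.16) and 6 of 7 at day 7 (median 0.06), counting Cd63 at 0.00.

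Lyz2 encodes lysozyme, a bacterial cell wall hydrolase best known from macrophages. It was at 9.50 with citalopram and 8.93 in control at day 3, and at 9.07 with citalopram and 8.60 in control at day 7. Both citalopram arrays lay above both control arrays, 1.48-fold at day 3 (0.57) and 1.39-fold at day 7 (0.47). Limma's estimate over both days was 0.52 (standard error 0.10, 95% interval 0.28 to 0.76, adjusted p 0.308 on the deposited values, 0.034 to 1.0 over the settings tried). Macrophages express both Lyz2 and Gpnmb. Of 8 macrophage markers read by a feature of their own, Cd14 (7.48 to 7.76) reached the floor and the other 7, among them Adgre1, Csf1r and Ptprc, did not (none above 5.93). Summed on a linear scale, these 8 markers came to 532 with citalopram and 527 in control at day 3, and to 486 with citalopram and 492 in control at day 7. With 7 of the 8 below the floor, the sum says little about the number of such cells. The part of macrophages in the values of Lyz2 and Gpnmb was not tested. None of the 4 melanocyte markers with a feature of their own reached the floor (none above 5.79).

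Grn encodes progranulin, a secreted and lysosomal glycoprotein. It was at 12.31 with citalopram and 12.03 in control at day 3, and at 12.17 with citalopram and 12.23 in control at day 7. The day 3 citalopram array was the highest and the day 3 control array the lowest. Tfeb, the transcription factor gene, was at 7.73 with citalopram and 7.94 in control at day 3, and at 7.97 with citalopram and 7.87 in control at day 7. Its differences were -0.21 and 0.09, and limma's 95% interval over both days was -0.33 to 0.20.

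**Figure D2:**
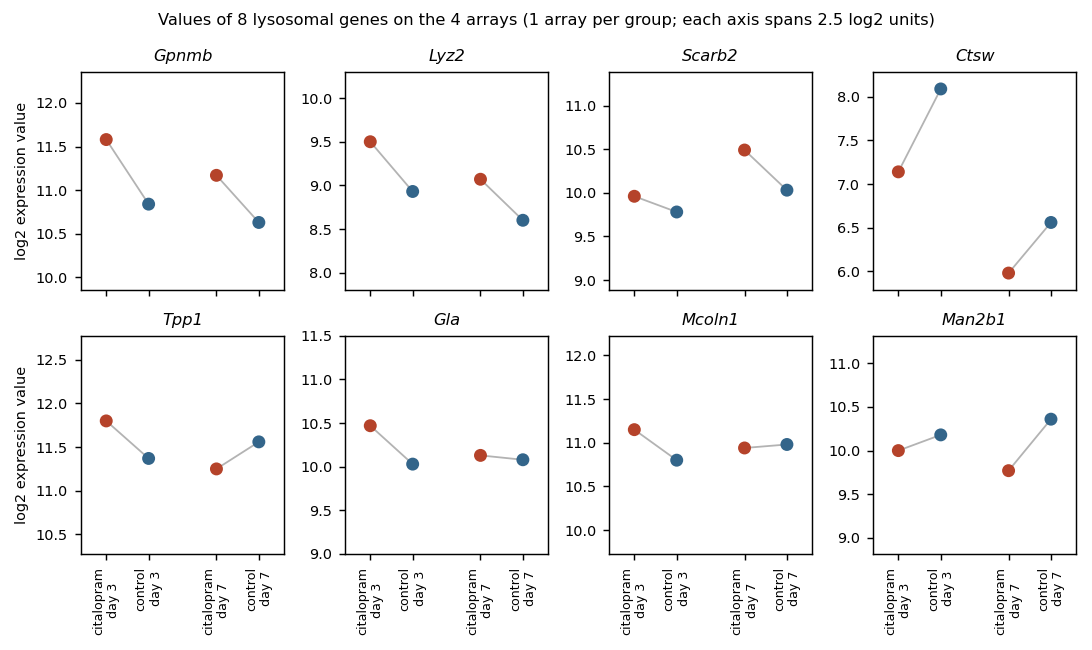
The log2 expression value of 8 lysosomal genes is shown on each array, with citalopram in red and control in blue, 1 array per group, and a grey line joining the pair of each day. For Gpnmb and Lyz2 both red points lie above both blue ones, whereas for Ctsw the red point is the lower of each pair and both day 7 points lie below both day 3 points.

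Among the proteases, Ctsw was lower with citalopram and the others were slightly higher at day 3. Ctsw encodes cathepsin W, a cysteine protease known from cytotoxic T cells and natural killer cells. It was at 7.14 with citalopram and 8.09 in control at day 3, and at 5.98 with citalopram and 6.56 in control at day 7. The citalopram array was the lower at each day, by 1.93-fold at day 3 (-0.95) and by a factor just under the 1.5-fold threshold at day 7 (-0.58), where the citalopram value lay just above the floor. Limma's estimate over both days was -0.77 (standard error 0.12, 95% interval -1.04 to -0.49, adjusted p 0.269 on the deposited values, 0.00235 to 1.0 over the settings tried). Of 8 markers of T and natural killer cells, Cd8a (5.88 to 6.33) and Prf1 (5.81 to 6.01) reached the floor on some array, and the other 6, Cd3e among them, did not (none above 5.64). Their linear sum was 376 with citalopram and 352 in control at day 3, and 342 with citalopram and 363 in control at day 7. With 6 of the 8 below the floor, this sum says little about the number of such cells. Their part in the values of Ctsw was not tested.

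Tpp1 encodes tripeptidyl peptidase, which trims tripeptides from protein ends. It was at 11.80 with citalopram and 11.37 in control at day 3, and at 11.25 with citalopram and 11.56 in control at day 7. The citalopram arrays held both the highest and the lowest of these 4 values, and the differences of 0.43 and -0.31 lie further apart than those of any other of the 37 genes. Ctsa encodes the protective protein that holds β-galactosidase and neuraminidase in a complex. It was at 13.07 with citalopram and 12.83 in control at day 3, and at 12.61 with citalopram and 12.78 in control at day 7. Ctsd encodes cathepsin D, the main aspartic protease of lysosomes. It was at 12.74 with citalopram and 12.52 in control at day 3, and at 12.76 with citalopram and 12.75 in control at day 7, so that the day 3 control array alone was low.

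The cysteine protease genes Ctsb, Ctsz, Ctsl and Ctsh differed by 0.10 to 0.18 at day 3 and by -0.32 to 0.00 at day 7. Ctsk encodes cathepsin K, the collagen-degrading protease of osteoclasts. It was at 10.73 with citalopram and 10.69 in control at day 3, and at 10.44 with citalopram and 10.27 in control at day 7. The differences were 0.04 and 0.18, with a limma 95% interval over both days of -0.13 to 0.35. Of 9 other osteoclast markers, 4 reached the floor (Itgb3, Mmp9, Siglec15 and Tnfrsf11a), and Acp5, Calcr, Dcstamp, Ocstamp and Oscar did not (none above 5.99). Their linear sum was 833 with citalopram and 769 in control at day 3, and 711 with citalopram and 666 in control at day 7. Without Itgb3 the sum was 443 with citalopram and 428 in control at day 3, and 396 with citalopram and 445 in control at day 7, so Itgb3 alone made the full sum higher with citalopram at day 7. The part of these markers in the values of Ctsk was not tested. In all, 8 of 9 proteases above the floor were higher at day 3 (median 0.12) and 3 of 9 at day 7 (median -0.17), counting Ctsb at 0.00.

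The glycosidase and sulfatase genes divided by sign. These enzymes remove sugars and sulfate groups in turn from glycans, glycolipids and glycosaminoglycans, and inherited loss of many of them causes a storage disease. Gla, the α-galactosidase A gene, was at 10.47 with citalopram and 10.03 in control at day 3, and at 10.13 with citalopram and 10.08 in control at day 7. Both citalopram arrays lay above both control arrays, with a 1.36-fold difference at day 3 (0.44) and 1.03-fold at day 7 (0.04), and limma's estimate was 0.24 (95% interval -0.04 to 0.53, adjusted p 0.644). Man2b1, the lysosomal α-mannosidase gene, was at 10.00 with citalopram and 10.18 in control at day 3, and at 9.77 with citalopram and 10.36 in control at day 7. Both citalopram arrays lay below both control arrays, with a difference of -0.18 at day 3 and, just under the 1.5-fold threshold, of -0.58 at day 7. Limma's estimate for Man2b1 was -0.38 (standard error 0.12, 95% interval -0.67 to -0.10, adjusted p 0.412).

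Naglu, which encodes the α-N-acetylglucosaminidase of heparan sulfate breakdown, was at 9.26 with citalopram and 9.30 in control at day 3, and at 8.99 with citalopram and 9.35 in control at day 7. Galns, the sulfatase gene of keratan sulfate breakdown, was at 9.49 with citalopram and 9.65 in control at day 3, and at 9.05 with citalopram and 9.37 in control at day 7 (limma's adjusted p over both days 0.552). Gusb, the β-glucuronidase gene, was at 9.80 with citalopram and 9.87 in control at day 3, and at 9.47 with citalopram and 9.72 in control at day 7. Man2b1, Naglu, Galns and Gusb were thus the 4 of 11 that were lower with citalopram at both days. Sgsh, the heparan sulfamidase gene, was at 9.05 with citalopram and 8.87 in control at day 3, and at 9.09 with citalopram and 8.96 in control at day 7. Idua, the α-L-iduronidase gene, was at 8.39 with citalopram and 8.30 in control at day 3, and at 8.45 with citalopram and 8.36 in control at day 7. With Gla, these 2 were higher at both days.

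Glb1, the β-galactosidase gene, was at 10.33 with citalopram and 10.24 in control at day 3, and at 10.30 with citalopram and 10.44 in control at day 7. It belongs to the 4 of 11 with a positive difference at day 3 and a negative one at day 7, with Neu1, the sialidase gene (0.24 and -0.07), Hexa, a subunit gene of β-hexosaminidase (0.06 and -0.06), and Ids, the iduronate sulfatase gene (0.05 and -0.07). Of the 11 genes, 7 were higher at day 3 (median 0.06) and 3 at day 7 (median -0.07). The day 7 difference lay below the day 3 difference by 0.005 or more in 10 of the 11 and was level in Idua. With no such minimum, the day 7 difference was the lower for 54.7% of all genes above the floor at both days.

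All 7 genes of lipid hydrolases and lipid handling were lower with citalopram at day 7, with differences of -0.21 to -0.04 (median -0.14), and 6 of 7 were higher at day 3 (median 0.09). Smpd1 encodes acid sphingomyelinase, an enzyme whose activity many cationic amphiphilic drugs lower. It was at 11.59 with citalopram and 11.49 in control at day 3, and at 11.29 with citalopram and 11.49 in control at day 7. The day 7 citalopram array alone was low, and limma's 95% interval for the citalopram effect over both days was -0.32 to 0.21. Pla2g15 encodes the lysosomal phospholipase A2, another target of drugs of this class. It was at 9.07 with citalopram and 9.30 in control at day 3, and at 9.18 with citalopram and 9.31 in control at day 7. Both citalopram arrays lay below both control arrays, with differences of -0.23 and -0.13 and a 95% interval over both days of -0.42 to 0.06 (limma's adjusted p 0.707).

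Ppt1, the palmitoyl-protein thioesterase gene, was at 12.29 with citalopram and 12.24 in control at day 3, and at 11.83 with citalopram and 12.04 in control at day 7. Npc2, which encodes the soluble carrier of cholesterol leaving the lysosome, differed by 0.26 and -0.14. Asah1 (acid ceramidase) differed by 0.09 and -0.10, Lipa (acid lipase) by 0.11 and -0.04, and Psap (the saposin precursor) by 0.05 and -0.14.

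**Figure D3:**
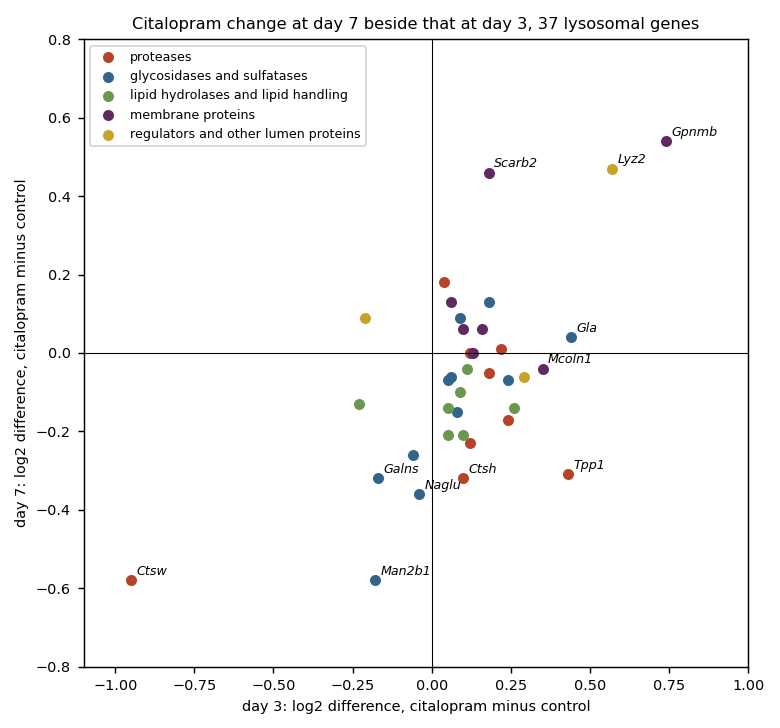
Each point is 1 of the 37 lysosomal genes, with the log2 difference between citalopram and control at day 3 on the horizontal axis and at day 7 on the vertical axis, coloured by role. The lower right field, above control at day 3 and below it at day 7, holds 17 genes with Tpp1 (0.43 and -0.31) at its far end, and Gpnmb, Lyz2 and Scarb2 stand apart at the upper right.

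Counted over both days, 7 of the 37 genes had both citalopram arrays above both control arrays (Gla, Gpnmb, Idua, Lamp1, Lamp2, Lyz2 and Sgsh), where 16.6% of all genes did. The reverse, both citalopram arrays below both control arrays, held for 3 of 37 (Man2b1, Naglu and Pla2g15), where 11.3% of all genes showed it. These shares are near those of all genes.

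Between the days, the lysosomal genes were mostly lower at day 7 with citalopram and nearly evenly divided in control. These differences use the same arrays as those between citalopram and control. For each gene, the gap between the treatments here equals the gap between its day 7 and day 3 differences from control. The contrast between treatments therefore restates the earlier pattern and is not a second result. The day 3 citalopram array enters both, and its part in them was not tested. With citalopram, 28 of 37 were lower at day 7 than at day 3 (median -0.24), where 55.5% of all genes were lower (median -0.03). In control, 17 of 37 were lower, or 16 by 0.005 or more (median 0.00), where 52.2% of all genes were lower (median -0.01). At least 1.5-fold lower at day 7 were Ctsw and Ctsh with citalopram, 2 of 37 where 2.77% of all genes were, and Ctsw in control, 1 of 37 where 1.12% were. None of the 37 was at least 1.5-fold higher in either treatment, where 2.09% of all genes were with citalopram and 1.23% in control.

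Ctsw fell at day 7, with a difference of -1.16 with citalopram and -1.53 in control. It was the 1 gene of the 37 that limma called for day on the deposited values (estimate -1.35, standard error 0.12, 95% interval -1.62 to -1.07, adjusted p 0.00162). Among all 12586 genes limma called 3.19%, with 189 higher (1.5%) and 212 lower (1.68%). Over the settings that tested it, the adjusted p of Ctsw for day ran from 1.97e-09 to 0.125, the highest in a fit with no term for treatment. After quantile normalization limma called 1575 of 12584 genes for day, 477 higher and 1098 lower at day 7. Among them were 7 of the 37, Scarb2 higher and Asah1, Cd63, Ctsh, Ctsw, Galns and Lyz2 lower. On the deposited values the adjusted p-values of limma for Scarb2, Asah1, Cd63, Ctsh, Galns and Lyz2 were 0.0607 (Ctsh) to 0.104 (Galns). At an unadjusted p under 0.05 limma placed 1 of the 37 higher and 9 lower at day 7, where 20.4% of all genes had such a p.

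Ctsh encodes cathepsin H, an aminopeptidase, and was at 8.84 with citalopram and 9.16 in control at day 7, against 9.58 with citalopram and 9.48 in control at day 3. Cd63 was at 13.26 with citalopram and 13.26 in control at day 7, against 13.71 with citalopram and 13.57 in control at day 3. Asah1 was at 13.06 with citalopram and 13.16 in control at day 7, against 13.53 with citalopram and 13.44 in control at day 3. For each of these 3 genes both day 7 arrays lay below both day 3 arrays, as they did for 13 of the 37 in all, where 28.6% of all genes showed this. Scarb2 had both day 7 arrays above both day 3 arrays (0.53 with citalopram and 0.26 in control), as did Ctsd, Laptm4a and Lipa, 4 of 37 where 20.4% of all genes did. Ctsl, the cathepsin L gene, was at 11.73 with citalopram and 11.96 in control at day 7, against 11.75 with citalopram and 11.62 in control at day 3.

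**Figure D4:**
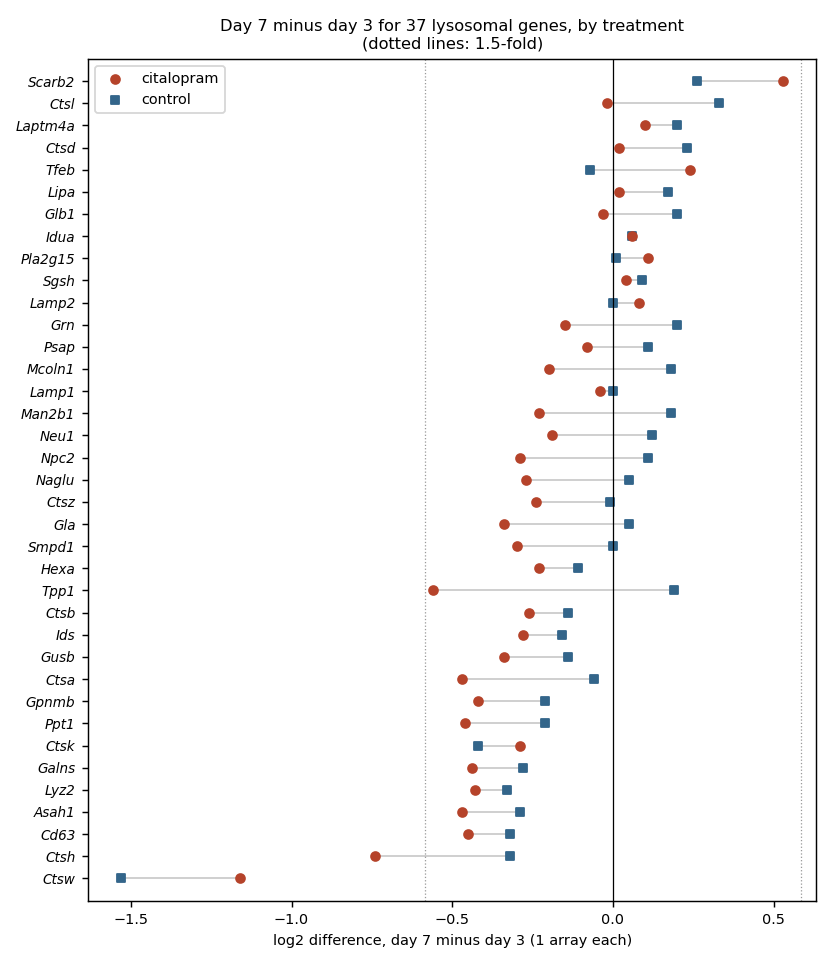
The log2 difference between day 7 and day 3 is shown for the 37 lysosomal genes in citalopram (red circles) and control (blue squares), ordered by limma's estimate for day, with 1 array on each side and dotted lines at 1.5-fold. Ctsw (-1.16 and -1.53) lies furthest left at the bottom and Scarb2 (0.53 and 0.26) at the top, and the red points lie left of 0 for 28 genes.

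Related genes were set beside these values. Of all genes above the floor, 57.7% lay above control at day 3 (median 0.03) and 51.4% at day 7 (median 0.01). Of the 8 pre-osteoblast markers above the floor, 87.5% were higher at day 3 and 75.0% at day 7. Other lysosomal enzyme genes above the floor numbered 25. Of these, 17 lay above control at day 3 (68.0%, median 0.09) and 7 at day 7 (28.0%, median -0.10). Arsa (arylsulfatase A, 0.42) and Dpp7 (a dipeptidyl peptidase, 0.39) were highest at day 3, and Siae (a sialic acid esterase, -0.33) and Manba (β-mannosidase, -0.32) lowest at day 7. The vacuolar proton pump acidifies lysosomes. Of its 19 genes above the floor, 16 were higher at day 3 (84.2%, median 0.15) and 4 at day 7 (21.1%, median -0.07). Its subunit gene Atp6v0d2, known from osteoclasts, was at 6.90 with citalopram and 5.95 in control at day 3, and at 6.13 with citalopram and 5.68 in control at day 7, with control below the floor at both days. Mannose 6-phosphate tags enzymes for the lysosome. Of 12 genes that add, uncover or sort it, 10 were higher at day 3 (83.3%, median 0.05) and 4 at day 7 (33.3%, median -0.09). The adaptor gene Gga2 differed by 0.39 at day 3 and -0.23 at day 7. Nagpa, which uncovers the tag, differed by 0.35 at day 3 and -0.33 at day 7. The medians of these 3 lists lay above 0 at day 3 and below it at day 7, as did that of the 37. These shares and medians describe the lists and were not tested.

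Of 20 other genes of lysosomal membrane proteins and transporters, 17 were higher at day 3 (85.0%, median 0.08) and 13 at day 7 (65.0%, median 0.09). The nucleoside transporter gene Slc29a3 differed by 0.33 and 0.19, and Npc1, the membrane partner of Npc2, by 0.25 at day 3. Lowest at day 7 were Ostm1 (-0.27) and Slc17a5 (-0.26). Of 19 genes of MiT factors and of nutrient signalling at the lysosome, 14 were higher at day 3 (73.7%, median 0.14) and 14 at day 7 (73.7%, median 0.09). Rragd, a Rag GTPase gene, differed by 0.35 and 0.40, with values close to the floor (5.89 to 6.37). Lowest were Lamtor2 at day 3 (-0.34) and Lamtor1 at day 7 (-0.34). The autophagy list had 16 of 25 genes higher at day 3 (median 0.05) and 15 of 25 at day 7 (median 0.04). Wipi1, which acts in autophagosome formation, differed by 0.27 at day 3, and the cargo receptor gene Sqstm1 by 0.28 at day 7. Lowest of this list were Atg12 at day 3 (-0.26) and Wdr45 at day 7 (-0.3). On the deposited values limma called 0 genes of these 6 lists for citalopram over both days, and 9 above and 2 below control had an unadjusted p under 0.05. These 11 of 120 genes (9.17%) are close to the 9.05% of all genes.

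**Figure D5:**
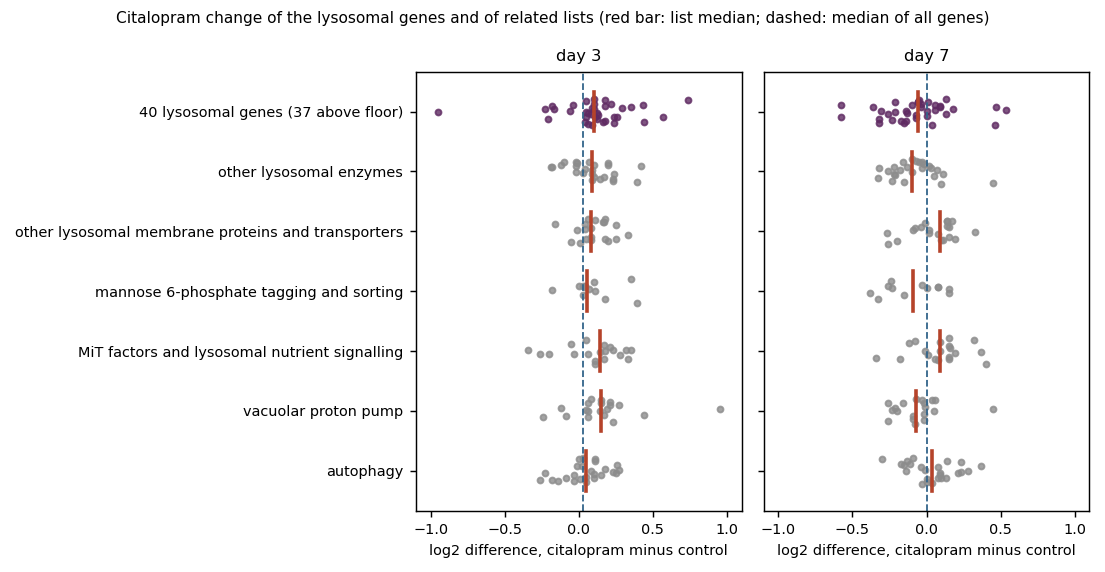
The log2 difference between citalopram and control is shown at day 3 (left) and day 7 (right) for the 37 lysosomal genes (purple) and 6 related lists (grey), 1 point a gene above the floor, with the list median as a red bar and the median of all genes (0.03 and 0.01) as a dashed line. The median of the lysosomal genes is 0.10 at day 3 and -0.06 at day 7, and the points of every list spread over both sides of 0.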

How the data were processed

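The deposited table gave 1 value per feature and array, for 35556 features. The deposited expression values were taken as log2 values. Their base was read from the range of 3.90 to 15.5 and is not stated. Partek is named per the submitters' processing notes. Background correction, array normalization and probe summarization were not given in the sources used here, and they could have removed or left a shift shared by most genes. Features were joined to symbols through the platform annotation. A gene was represented by its brightest feature on average, shared features counting once (20216 features), and only features with 1 symbol were named.

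Differences at a single day carry no test. Across genes, limma 3.58.1 (R 4.3.3, lmFit and eBayes) was fitted to 12586 genes that reached the floor on some array, with terms for treatment and day. Its two-sided p-values were adjusted by the Benjamini-Hochberg method, and a call was an adjusted p under 0.05. Nothing in the labels says that arrays came from separate cultures, and no spread between replicates could be measured. Limma's p-values rest on how far a gene's citalopram effect differed between the days and on the spread shared across genes. Either may be technical. Alternatives were other scalings, feature choices, floors and fits. Values on each array are given for genes among the 6 highest or 6 lowest of the 40 in a comparison, for genes called by limma, and for Tfeb, Lamp1, Ctsk, Smpd1 and Pla2g15, and from each related list at most the 2 highest and 2 lowest genes of a day were named. The members and lists were chosen with earlier results of these data known. Tables and plots were made in Python 3.11.15 (numpy 2.4.6, pandas 2.3.3, matplotlib 3.10.9).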

Additional observations from a re-analysis of the deposited data

Results flagged for a closer look

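The citalopram change of Tpp1 had opposite signs on the 2 days, 0.43 at day 3 and -0.31 at day 7, and the day 7 change lay below the day 3 change by more than 1.5-fold (difference of the changes -0.74). It was the 1 gene of the 37 that met both conditions. With 1 array per group, the difference was not tested.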

How the results depend on the processing

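Each comparison was repeated with quantile normalization, cyclic loess, equal medians of all genes, the mean of a gene's features, only features with 1 symbol, no floor, and a floor at the 60th percentile. Under these the lysosomal genes higher with citalopram numbered 30 to 31 at day 3 and 11 to 16 at day 7, and both medians kept their sign. The share of all genes higher was 51.6% to 60.8% at day 3 and 45.1% to 52.3% at day 7. At day 7 the median of all genes was also negative under quantile normalization (-0.024, against -0.037 for the lysosomal genes). The same held under equal medians (-0.015 against -0.082) and no floor (-0.018 against -0.058). In these settings the sign alone does not set the lysosomal genes apart. The number at least 1.5-fold lower at day 7 was 1 under quantile normalization and 2 under cyclic loess and under equal medians, against 0 as deposited. With the 60th percentile as floor Ctsw was no longer tested, and the numbers at least 1.5-fold lower were 0 at day 3, 1 for day 7 minus day 3 in citalopram and 0 for day 7 minus day 3 in control. No share of all genes past 1.5-fold is given for these settings, so the counts past 1.5-fold have no background beside them. The control median between days, 0.00, became -0.01 under quantile normalization and 0.01 under equal medians, no floor and the higher floor. For citalopram over both days, limma called 2 lysosomal genes higher and 1 lower after quantile normalization, and 1 higher and 1 lower after cyclic loess and after equal medians, against 0. Over all genes it called 131, 41 and 36 under these 3 scalings, 6 at the higher floor and 0 under the other settings, among them an intensity trend and no term for day. For day it called 1 lysosomal gene higher after each scaling, with 6 lower after quantile normalization, 5 after cyclic loess and 4 after equal medians. It called 2 lower at the higher floor and 0 lower with no term for treatment, against 0 higher and 1 lower as deposited. Over all genes the calls for day were 401 as deposited, 1575, 1076 and 1004 under the 3 scalings, 719 at the higher floor, 218 with no floor and 84 with no term for treatment. The genes tested numbered 12584 after quantile normalization, 8430 at the higher floor, 20216 with no floor and 12586 in the others of these settings. Why the calls moved with the scaling was not tested. No array could be left out, since each group holds 1. The term for day already sets citalopram against control within each day, and the labels give no replicate numbers by which arrays could be paired further.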
